A study of Bos taurus with 12 samples.

Results

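The 9 genes described here encode adipokines, which are signalling proteins released by adipose tissue, and relatives of adiponectin. They were ADIPOQ (adiponectin), LEP (leptin), RARRES2 (chemerin), NAMPT (nicotinamide phosphoribosyltransferase, also called visfatin) and the C1q/TNF-related genes C1QTNF1, C1QTNF2, C1QTNF3, C1QTNF6 and C1QTNF7. They were taken by gene name from the deposited mRNA table. All 9 were found among the 33714 entries of that table. Of these, 8 had an entry of their own, whereas C1QTNF2 was listed only in a joint entry with ZBED8, and the values of that entry cannot be divided between the genes. The test described below covered 7 of the 9, and C1QTNF6 and C1QTNF7 fell under its minimum level.

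Adiponectin is made almost entirely by mature fat cells, is assembled into multimers in the endoplasmic reticulum and acts through ADIPOR1, ADIPOR2 and T-cadherin. The C1q/TNF-related proteins share its build, a collagen-like stalk with a globular C1q domain, and most of them are secreted by several tissues and not by fat cells alone. Leptin is released by fat cells in step with their fat stores and acts through LEPR, and chemerin is a secreted ligand of CMKLR1 and GPR1.

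The cells were preadipocytes, the precursors of fat cells, from a back muscle (longissimus dorsi) of newborn Qinchuan cattle. RNA was sequenced from uninduced cells near confluence (0 d) and from cells at 3, 6 and 9 d of differentiation, which gave 3 libraries per day and 12 altogether. The 3 induced groups had received 0.5 mM IBMX (a phosphodiesterase inhibitor), dexamethasone (a synthetic glucocorticoid) and insulin for 48 h, followed by insulin alone, which the sample labels give as 5 µg/mL. The study's methods give other doses of insulin and dexamethasone than the labels. All groups were grown in medium with fetal bovine serum. The replicates are called biological by the study, which also describes the cells of all days as 1 batch. The sources do not say whether the replicates came from separate animals, so that p-values measure the spread between these samples.

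Levels are FPKM (fragments scaled to transcript length and to the mapped reads of a library), a measure per length that allows levels of different genes to be compared. FPKM hold no counts, so the depth behind a single value is unknown. The FPKM of a library summed to between 1221194 and 1371794. Of 10 housekeeping genes, 0 were listed at 0 in any library. Differences were tested with limma on log2(FPKM + 0.1) for the 15402 mRNAs with a mean FPKM of at least 0.1, and p-values were adjusted by the Benjamini–Hochberg method over these mRNAs. An mRNA was called higher or lower when its absolute log2 fold change exceeded 1 and its adjusted p-value was under 0.05. A log2 fold change on this scale understates the change of an mRNA with low FPKM.

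The labelled cell type was checked against 18 adipocyte markers, of which 17 had an entry and 15 were tested. At 3 d vs. 0 d, 9 of the 15 rose and 1 fell (CIDEA, log2 fold change -1.03), and at both 6 d and 9 d vs. 0 d 5 rose and 0 fell. At 6 d vs. 3 d 0 rose and 4 fell (median log2 difference -0.63, beside -0.09 for all mRNAs), and at 9 d vs. 6 d 2 rose and 2 fell. DGAT2, which completes triglyceride synthesis, had a mean FPKM of 0.0733, 21.8, 8.27 and 9.25 at 0, 3, 6 and 9 d. FABP4, a fatty acid carrier of fat cells, had means of 3.30, 91.1, 26.4 and 9.07 on the same days. The fatty acid transporter CD36 rose to 8.07 at 9 d from 0.307 at 0 d, and the lipid droplet protein PLIN4 to 1.3 from 0.173. Several markers of mature fat cells were absent or near 0: LGALS12 was listed at 0 in all libraries, ADRB3 had no day mean over 0.0633 and CEBPA none over 0.220. In bulk libraries such as these, fewer cells of a type and less RNA per cell cannot be told apart.

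The levels of the 9 genes spanned a wide range. C1QTNF1 had the highest mean over the 12 libraries, an FPKM of 993, which ranked 169 among the 23420 entries above 0. NAMPT followed with 154 (rank 1090), the joint C1QTNF2 entry with 39.1 (rank 2939), C1QTNF3 with 25.2 (rank 3856) and LEP with 7.74 (rank 6707). RARRES2 had a mean of 0.758 (rank 11783) and ADIPOQ one of 0.512 (rank 12446). C1QTNF6, with 0.0900, ranked 15605 and C1QTNF7, with 0.0175, ranked 18671. ADIPOQ, C1QTNF6 and C1QTNF7 were near 0, here taken as a mean FPKM under 1 on every day. RARRES2 exceeded 1 only at 9 d, and LEP and C1QTNF3 were under 1 only at 3 d.

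**Figure D1:**
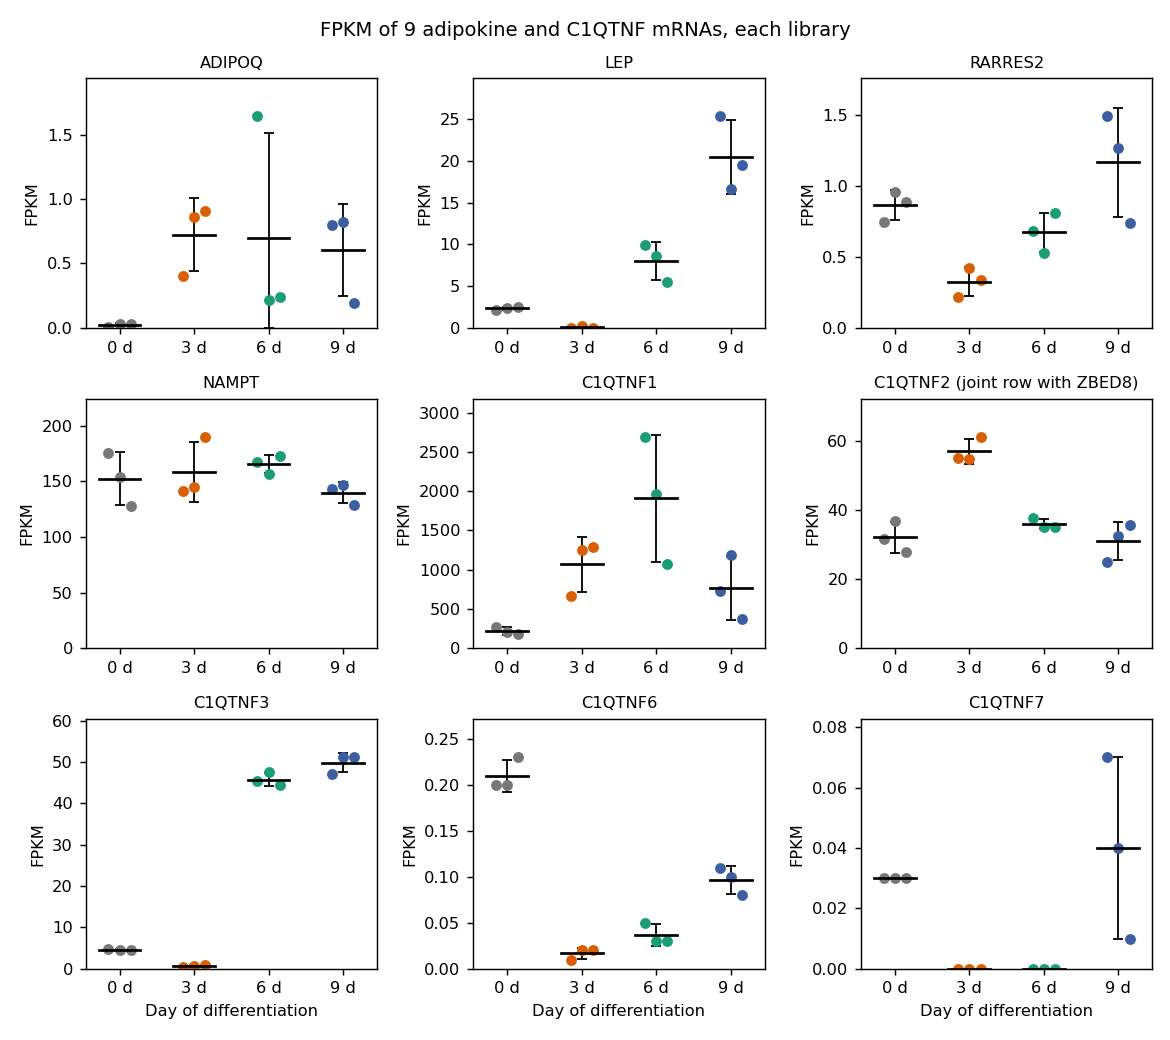
FPKM of the 9 mRNAs in each library (points) by day, with the mean (horizontal line) and SD (bars, cut at 0) of the 3 libraries of a day; each panel has its own linear axis from 0. LEP and C1QTNF3 have their lowest points at 3 d and their highest at 9 d, C1QTNF1 spreads from 1079 to 2690 at 6 d, and NAMPT stays between 128 and 190.

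ADIPOQ, the gene of adiponectin, was listed at an FPKM of 0.01, 0.03 and 0.03 in the 3 libraries of 0 d, at 0.40, 0.86 and 0.91 at 3 d, at 1.64, 0.22 and 0.24 at 6 d and at 0.80, 0.82 and 0.19 at 9 d. Every induced library lay above every 0 d library, and the 3 induced days overlapped one another. Its means ± SD (n = 3) were 0.0233 ± 0.0116, 0.723 ± 0.281, 0.700 ± 0.814 and 0.603 ± 0.358 at 0, 3, 6 and 9 d. Only 1 of the 12 libraries, 6 d replicate 1, exceeded an FPKM of 1. ADIPOQ rose at 3 d vs. 0 d by a log2 fold change of 2.68 (95% interval 1.19 to 4.16, limma, adjusted p = 0.00655). It also rose at 6 d vs. 0 d (2.22, 0.74 to 3.71, limma, adjusted p = 0.0258) and at 9 d vs. 0 d (2.34, 0.85 to 3.82, limma, adjusted p = 0.0196). The log2 differences were -0.45 at 6 d vs. 3 d and 0.11 at 9 d vs. 6 d, and neither was called.

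The calls of ADIPOQ at 6 d and 9 d depended on single libraries and on the setting. Without 6 d replicate 1, the mean FPKM at 6 d was 0.230 in place of 0.700, and the log2 fold change of 6 d vs. 0 d was 1.42 (limma, adjusted p = 0.0605). The call was also lost without 0 d replicate 1 (2.14), 2 (2.26) or 3 (2.26), with adjusted p-values of limma from 0.022 to 0.0707 over the 6 fits that each left out 1 library. With only the 6 libraries of 0 d and 6 d in the fit, the call at 6 d was lost as well (2.22, limma, adjusted p = 0.0578). The call at 9 d was lost without 0 d replicate 1 (2.26), 9 d replicate 1 (2.07) or 9 d replicate 2 (2.05). With a pseudocount of 1 in place of 0.1, which shrinks differences between values under 1, the log2 fold changes of ADIPOQ were 0.74, 0.63 and 0.62 at 3, 6 and 9 d, and none was called. With a pseudocount of 0.01 they were 4.44, 3.84 and 4.01, and all 3 were called (limma, adjusted p = 0.00111, 0.0047 and 0.00362).

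LEP, the gene of leptin, was listed at 2.17, 2.39 and 2.47 in the 0 d libraries, at 0, 0.21 and 0 at 3 d, at 9.97, 8.60 and 5.50 at 6 d and at 25.33, 16.62 and 19.57 at 9 d. No pair of days overlapped, and the order was 9 d, 6 d, 0 d and 3 d from high to low. Mean FPKM ± SD (n = 3) was 2.34 ± 0.155, 0.0700 ± 0.121, 8.02 ± 2.29 and 20.5 ± 4.43 at 0, 3, 6 and 9 d. LEP fell at 3 d vs. 0 d, with a log2 fold change of -4.06 (95% interval -4.98 to -3.15, limma, adjusted p = 1.49e-05). It rose at 6 d vs. 3 d by 5.76 (4.85 to 6.67, limma, adjusted p = 1.53e-06). Against 0 d, the log2 fold change was 1.69 at 6 d (0.78 to 2.60, limma, adjusted p = 0.00895) and 3.06 at 9 d (2.15 to 3.97, limma, adjusted p = 0.000262), and both were called. The size of the differences from 3 d depended on the pseudocount, as 2 of the 3 d libraries were at 0. With a pseudocount of 1 the log2 fold change was -1.65 at 3 d vs. 0 d and 3.05 at 6 d vs. 3 d, with one of 0.01 it was -6.39 and 8.12, and all 4 were called.

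From 6 d to 9 d, LEP rose by a log2 fold change of 1.36 (95% interval 0.45 to 2.27, limma, adjusted p = 0.0404), and the ratio of the means was 2.56. This call was close to the threshold: it was lost in each of the 6 fits that left out 1 library of 6 d or 9 d. Without 6 d replicate 1, 2 or 3 the log2 fold change was 1.54, 1.43 or 1.12, and without 9 d replicate 1, 2 or 3 it was 1.2, 1.5 or 1.39, with adjusted p-values of limma from 0.0525 to 0.132. It was also lost with a replicate block (limma, adjusted p = 0.0545), without the minimum level (limma, adjusted p = 0.0581) and with a pseudocount of 0.01 (limma, adjusted p = 0.388). It was kept with a pseudocount of 1 (1.27, limma, adjusted p = 0.00138), in a fit of only the 6 libraries compared (limma, adjusted p = 0.0221), after rescaling by median ratios (limma, adjusted p = 0.033) and with a mean FPKM of at least 1 (limma, adjusted p = 0.0363). With a pseudocount of 0.01 the call of LEP at 6 d vs. 0 d was lost as well (1.73, limma, adjusted p = 0.213).

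RARRES2 encodes chemerin, a ligand that draws immune cells and acts on fat cells. It was listed at 0.75, 0.96 and 0.89 in the 0 d libraries, at 0.22, 0.42 and 0.34 at 3 d, at 0.68, 0.53 and 0.81 at 6 d and at 1.49, 1.27 and 0.74 at 9 d. The 3 d libraries lay below all others, while 9 d overlapped 0 d and 0 d overlapped 6 d. The means ± SD (n = 3) were 0.867 ± 0.107, 0.327 ± 0.101, 0.673 ± 0.140 and 1.17 ± 0.386 at 0, 3, 6 and 9 d. RARRES2 fell at 3 d vs. 0 d (log2 fold change -1.20, 95% interval -1.79 to -0.62, limma, adjusted p = 0.00306). At 6 d vs. 3 d the log2 difference was 0.87 (0.29 to 1.45, limma, adjusted p = 0.019), which is under the fold change required. That difference was called without 3 d replicate 2 (1.03) or 6 d replicate 2 (1.01) and with a pseudocount of 0.01 (1.05), and the fall at 3 d was not called with a pseudocount of 1 (-0.49). Neither 6 d (-0.33) nor 9 d (0.35) was called against 0 d.

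NAMPT, the enzyme that limits the rate of NAD salvage and is also found outside cells, was listed at 175.50, 153.49 and 128.13 in the 0 d libraries, at 141.05, 144.39 and 189.77 at 3 d, at 167.43, 156.29 and 172.77 at 6 d and at 143.15, 146.73 and 128.98 at 9 d. Neighbouring days in the order of means (6 d, 3 d, 0 d and 9 d) overlapped. The means ± SD (n = 3) were 152 ± 23.7, 158 ± 27.2, 165.5 ± 8.41 and 140 ± 9.39 at 0, 3, 6 and 9 d. The log2 difference from 0 d was 0.05 at 3 d (95% interval -0.25 to 0.36), 0.13 at 6 d (-0.17 to 0.43) and -0.12 at 9 d (-0.42 to 0.18), and none was called. All 9 d libraries lay below all 6 d libraries, but the log2 difference was -0.25 (-0.55 to 0.06, limma, adjusted p = 0.25).

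C1QTNF1, a secreted C1q/TNF-related protein of adipose and vascular tissue, was listed at 274.94, 205.83 and 186.80 in the 0 d libraries, at 669.69, 1257.39 and 1291.45 at 3 d, at 2690.16, 1962.84 and 1078.56 at 6 d and at 732.36, 1193.59 and 374.27 at 9 d. Each induced library was above each 0 d library, and the induced days overlapped one another. C1QTNF1 had means ± SD (n = 3) of 222.5 ± 46.4, 1073 ± 350, 1911 ± 807 and 767 ± 411 at 0, 3, 6 and 9 d. C1QTNF1 rose at 3 d vs. 0 d by a log2 fold change of 2.23 (95% interval 1.2 to 3.25, limma, adjusted p = 0.00218), and the ratio of the means was 4.82. It rose at 6 d vs. 0 d by 3.02 (2.0 to 4.05, limma, adjusted p = 0.000569), with a ratio of 8.59. At 9 d vs. 0 d the rise was 1.65 (0.63 to 2.67, limma, adjusted p = 0.0176), with a ratio of 3.45.

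The spread of C1QTNF1 within days was large for an abundant mRNA. Its residual SD on the log2 scale was 0.618, whereas the median was 0.0897 over the 299 mRNAs with a mean FPKM within 2 fold of its own, and 94.6% of these had a smaller SD. The call at 9 d vs. 0 d was lost without 0 d replicate 3 (1.53), 9 d replicate 1 (1.61) or 9 d replicate 2 (1.25), with adjusted p-values of limma from 0.00542 to 0.0652 over the 6 fits that each left out 1 library. The log2 difference at 9 d vs. 6 d was -1.37 (95% interval -2.40 to -0.35, limma, adjusted p = 0.0614) and was not called. It was called without 6 d replicate 3 (-1.74, limma, adjusted p = 0.0346) or without 9 d replicate 2 (-1.77, limma, adjusted p = 0.0285), and the p-values of the 6 such fits reached 0.185.

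The joint entry of ZBED8 and C1QTNF2 was listed at 31.59, 37.06 and 28.01 at 0 d, at 55.14, 54.88 and 61.31 at 3 d, at 37.86, 35.25 and 35.14 at 6 d and at 25.00, 32.55 and 35.79 at 9 d. The 3 d libraries were above all others, and the other days overlapped. The means ± SD (n = 3) were 32.2 ± 4.56, 57.1 ± 3.64, 36.1 ± 1.54 and 31.1 ± 5.54 at 0, 3, 6 and 9 d. The log2 difference at 3 d vs. 0 d was 0.83 (95% interval 0.53 to 1.14, limma, adjusted p = 0.000511). At 6 d vs. 3 d it was -0.66 (-0.97 to -0.35, limma, adjusted p = 0.00258). Both were larger than the spread between libraries but smaller than the fold change required for a call. Whether they belong to C1QTNF2, a secreted relative of adiponectin, or to ZBED8 cannot be told apart.

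C1QTNF3, a secreted C1q/TNF-related protein of cartilage and adipose tissue, was listed at 4.76, 4.50 and 4.46 in the 0 d libraries, at 0.54, 0.79 and 0.80 at 3 d, at 45.36, 47.58 and 44.43 at 6 d and at 47.24, 51.15 and 51.14 at 9 d. The 3 d libraries were the lowest, 0 d followed, and 6 d and 9 d were far above both and overlapped each other. From 0 d to 9 d the means ± SD (n = 3) were 4.57 ± 0.163, 0.710 ± 0.147, 45.8 ± 1.62 and 49.8 ± 2.26. C1QTNF3 fell at 3 d vs. 0 d, with a log2 fold change of -2.55 (95% interval -2.81 to -2.28, limma, adjusted p = 5.77e-08). It rose at 6 d vs. 3 d by 5.84 (5.57 to 6.11, limma, adjusted p = 4.42e-10), and the ratio of the means was 64.5. Against 0 d it was higher by 3.30 at 6 d (3.03 to 3.56, limma, adjusted p = 3.85e-08) and by 3.42 at 9 d (3.15 to 3.69, limma, adjusted p = 3.62e-08). The difference between 9 d and 6 d was 0.12 (-0.15 to 0.39, limma, adjusted p = 0.552). None of these calls changed under any alternative setting tried or when any library was left out.

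C1QTNF6 was listed at 0.20, 0.20 and 0.23 at 0 d, at 0.01, 0.02 and 0.02 at 3 d, at 0.05, 0.03 and 0.03 at 6 d and at 0.11, 0.10 and 0.08 at 9 d. No pair of days overlapped, and the order from high to low was 0 d, 9 d, 6 d and 3 d. C1QTNF7 was listed at 0.03 in each 0 d library, at 0 in each library of 3 d and 6 d and at 0.07, 0.04 and 0.01 at 9 d. Both encode secreted relatives of adiponectin. Their means over the 12 libraries were under 0.1, so neither was tested in the fit above, and the number of fragments behind such values is unknown. In the fit without a minimum level, C1QTNF6 was called lower than at 0 d at 3 d (log2 fold change -1.41, limma, adjusted p = 1.07e-06) and at 6 d (-1.18, limma, adjusted p = 1.01e-05). C1QTNF7 was not called in any of the 5 comparisons.

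Counted by comparison, 5 of the 7 tested mRNAs were called at 3 d vs. 0 d, where 23.3% of all tested mRNAs were called. ADIPOQ and C1QTNF1 rose (8.06% of all mRNAs were called higher), and LEP, RARRES2 and C1QTNF3 fell (15.2% were called lower). For 6 of the 7, the libraries of 3 d and 0 d did not overlap, which held for 59.3% of all tested mRNAs. The median log2 difference of the 7 was 0.05, beside -0.06 for all mRNAs.

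At 6 d vs. 0 d, 4 of the 7 rose and 0 fell, whereas 11.4% of all mRNAs were called, 3.39% higher and 7.97% lower. At 9 d vs. 0 d, 4 rose and 0 fell, beside 10.9% called among all mRNAs, 3.41% higher and 7.47% lower. Without 9 d replicate 1, and likewise without 9 d replicate 2, the number at 9 d was 2 in place of 4, as ADIPOQ and C1QTNF1 were not called. In both comparisons the mRNAs that rose were ADIPOQ, LEP, C1QTNF1 and C1QTNF3, and these comparisons share the 0 d libraries with each other and with 3 d vs. 0 d. The median log2 difference of the 7 was 1.69 at 6 d, beside -0.15 for all mRNAs, and 1.65 at 9 d, beside -0.19. The libraries did not overlap for 4 of the 7 at 6 d (47.9% of all mRNAs) and for 4 at 9 d (49.9%). When FPKM were rescaled between libraries by their median ratio, the median of all mRNAs moved up by 0.16 at 6 d and 0.19 at 9 d vs. 0 d. The share of higher mRNAs among those called then was 40.6% in place of 29.8% at 6 d and 46.6% in place of 31.3% at 9 d. No call of the 7 changed with it.

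Between induced days, LEP and C1QTNF3 rose at 6 d vs. 3 d, which made 2 of 7 called and 0 lower. Among all mRNAs 19.1% were called, 9.85% higher and 9.23% lower, and the libraries of 4 of the 7 did not overlap (58.6% of all mRNAs). The median log2 difference was 0.80, beside -0.09. At 9 d vs. 6 d only LEP was called, 1 of 7, where 4.43% of all mRNAs were called, 2.55% higher and 1.89% lower. LEP was not called in any of the 6 fits of 9 d vs. 6 d that left out 1 library. The libraries of LEP and NAMPT did not overlap (2 of 7, beside 39.0% of all mRNAs), and the median was 0.11, beside -0.04.

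**Figure D2:**
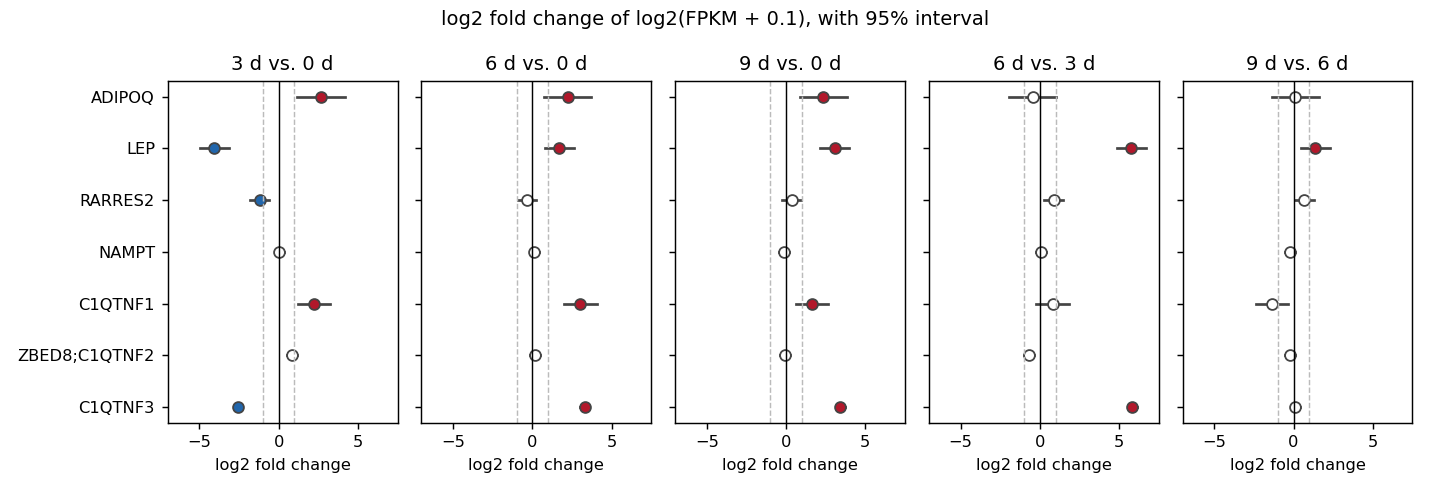
Log2 fold change of log2(FPKM + 0.1) with its 95% interval for the 7 tested mRNAs in 5 comparisons; filled red points were called higher, filled blue points lower and open points not called, and dashed lines mark a log2 fold change of 1 in either direction. LEP and C1QTNF3 lie at -4.06 and -2.55 at 3 d vs. 0 d and at 5.76 and 5.84 at 6 d vs. 3 d, while NAMPT lies near 0 throughout.

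The receptors of adiponectin were listed at higher FPKM than ADIPOQ itself on every day. ADIPOR1 had day means of 9.61, 9.63, 8.69 and 8.85 at 0, 3, 6 and 9 d and was not called in any comparison. ADIPOR2 had means of 45.25, 77.8, 57.45 and 43.1, with a log2 difference of 0.76 at 3 d vs. 0 d (limma, adjusted p = 0.00172) that was not called. CDH13, which encodes T-cadherin and binds adiponectin multimers, had means ± SD (n = 3) of 212.5 ± 5.31, 29.8 ± 2.39, 140 ± 6.69 and 229 ± 6.47. It fell at 3 d vs. 0 d (log2 fold change -2.83, limma, adjusted p = 3.98e-10) and rose at 6 d vs. 3 d (2.23, limma, adjusted p = 3.04e-09).

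Of 13 genes for adiponectin receptors, signalling and secretion, all 13 were tested. At 3 d vs. 0 d 0 rose and 3 fell, while 1 rose and 1 fell at 6 d and likewise at 9 d vs. 0 d. At 6 d vs. 3 d 2 rose and 0 fell, and limma called 0 at 9 d vs. 6 d. ERO1A, an oxidase that helps adiponectin multimers form in the endoplasmic reticulum, had day means of 132, 152, 501 and 311 and rose by a log2 fold change of 1.93 at 6 d and 1.13 at 9 d vs. 0 d. PRKAA2, a catalytic subunit of the kinase AMPK, had means of 0.573, 0.193, 0.123 and 0.150 and fell at 3 d (-1.20), 6 d (-1.60) and 9 d (-1.43) vs. 0 d. CAMKK2, a kinase upstream of AMPK, fell at 3 d vs. 0 d (-1.09).

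LEPR, the leptin receptor, was near 0: its FPKM was 0 in all libraries of 0 d and 9 d and between 0.01 and 0.03 at 3 d and 6 d. LEPROT, a gene that shares its promoter region with LEPR but encodes another protein, had day means of 289, 204, 344 and 344. Of 7 genes for the leptin receptor and its signalling, 6 were tested. SOCS3, an inhibitor of that signalling that many cytokines also induce, rose at 9 d vs. 0 d (log2 fold change 1.05, limma, adjusted p = 5.83e-06), and the list held no other call in the 5 comparisons.

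Chemerin's receptors were low as well. CMKLR1 had day means of 0.0867, 0.0533, 0.0433 and 0.130 and CCRL2, which binds chemerin without known signalling, of 0.0767, 0, 0 and 0.0167, and neither was tested. GPR1 had means ± SD (n = 3) of 0.187 ± 0.0404, 0.870 ± 0.383, 0.183 ± 0.0153 and 0.270 ± 0.0557. It rose at 3 d vs. 0 d (log2 fold change 1.70, limma, adjusted p = 0.0002) and fell at 6 d vs. 3 d (-1.71, limma, adjusted p = 0.000234). RARRES2 and GPR1 thus had their lowest and highest day mean, respectively, at 3 d.

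**Figure D3:**
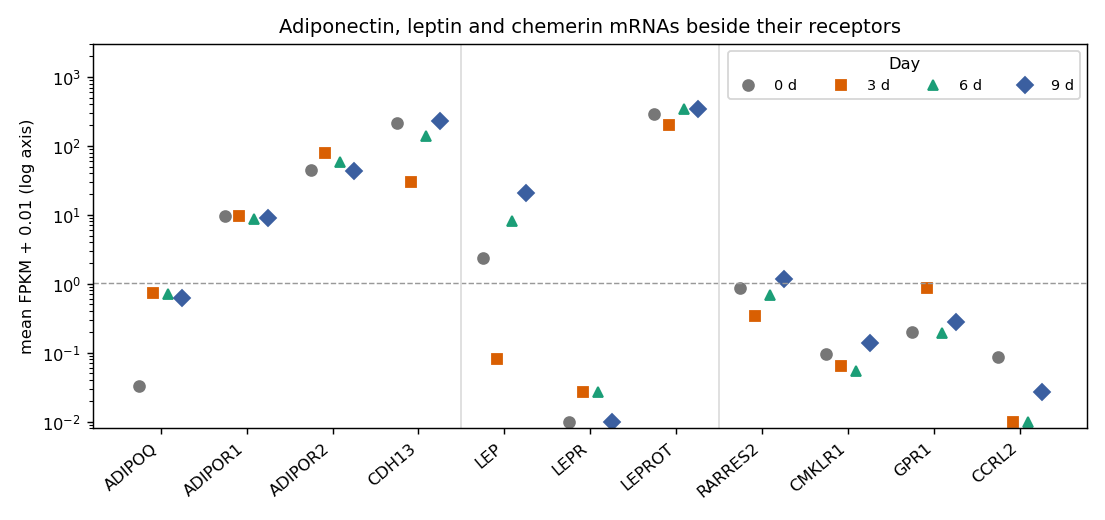
Mean FPKM + 0.01 (log axis) of ADIPOQ, LEP and RARRES2 beside their receptors and LEPROT on each day (n = 3); the dashed line marks an FPKM of 1. ADIPOR1, ADIPOR2 and CDH13 lie above ADIPOQ on every day, LEPR lies near the foot of the axis, with a mean FPKM of 0.0167 or less before the shift of 0.01, and CMKLR1, GPR1 and CCRL2 lie under the dashed line.

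For NAD salvage and use, the pathway of NAMPT, 13 of 15 listed genes had an entry and 12 were tested. At 3 d vs. 0 d 0 rose and 2 fell, at 6 d vs. 0 d 1 rose and 2 fell, and at 9 d vs. 0 d 0 rose and 1 fell. NMRK2, which makes an NAD precursor from nicotinamide riboside, fell on all 3 days (log2 fold change -1.85, -1.35 and -1.26), with day means of 1.85, 0.443, 0.667 and 0.730. SIRT2, an NAD-dependent deacetylase, fell at 3 d (-1.26) and 6 d (-1.02). QPRT of NAD synthesis from tryptophan rose at 6 d vs. 0 d (1.03), and NAPRT, which uses nicotinic acid, fell at 6 d vs. 3 d (-1.44). At 9 d vs. 6 d, limma called 0 of the 12.

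Among the other C1q/TNF-related genes, 5 of 6 had an entry and 1 was tested. C1QTNF5, listed jointly with MFRP, had day means of 3.36, 1.5, 3.16 and 3.48. That entry fell at 3 d vs. 0 d (log2 fold change -1.10, limma, adjusted p = 2.63e-06) and rose at 6 d vs. 3 d (1.02, limma, adjusted p = 6.28e-06). C1QTNF8 was listed at 0 in all libraries, and C1QTNF4, C1QTNF9 and C1QTNF12 had no day mean over 0.0700. C1QTNF1, C1QTNF3 and the joint C1QTNF2 and C1QTNF5 entries were thus the C1QTNF entries that passed the minimum level.

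Outside that family, 21 genes of proteins with a C1q domain or of their relatives were listed, of which 10 were tested. Among these was EMILIN3, an emilin without that domain, which was not called (log2 difference -1.41 at 3 d vs. 0 d). At 3 d vs. 0 d 1 rose and 5 fell (median log2 difference -1.35, beside -0.06 for all mRNAs), and at 6 d vs. 3 d 5 rose and 0 fell. MMRN2, a matrix protein of blood vessels, had day means of 0.880, 0.0600, 4.31 and 3.96, with a log2 fold change of -2.67 at 3 d and 2.17 at 6 d vs. 0 d. COL8A1, a short-chain collagen, had means of 2.36, 0.147, 0.960 and 2.39 and fell at 3 d vs. 0 d (-3.32). COL8A2 fell at 3 d vs. 0 d (-1.64), and CBLN4 was lower than at 0 d on all 3 days (-1.29, -2.28 and -1.80). The complement genes C1QA and C1QC were listed at 0 in all libraries.

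Of 30 other genes of secreted adipokines, 28 had an entry and 19 were tested. At 3 d vs. 0 d 4 rose and 6 fell, at 6 d vs. 0 d 3 rose and 2 fell, and at 9 d vs. 0 d 5 rose and 2 fell. At 6 d vs. 3 d 5 rose and 3 fell, and at 9 d vs. 6 d 2 rose and 2 fell. FST, which binds activins, had day means of 25.1, 0.350, 17.4 and 32.4, with a log2 fold change of -5.81 at 3 d vs. 0 d and 5.29 at 6 d vs. 3 d. SFRP5, a secreted inhibitor of Wnt ligands, had means of 0.0400, 4.81, 5.40 and 0.467 and rose at 3 d (5.16) and 6 d (5.32) vs. 0 d. ANGPTL4, an inhibitor of lipoprotein lipase, had means of 1.32, 11.1, 1.77 and 2.76 (2.98 at 3 d vs. 0 d), and GDF15 fell at 3 d (-3.12) and 6 d (-1.42) vs. 0 d. RETN (resistin) and SERPINA12 (vaspin) were listed at 0 in all libraries.

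Genes known to respond to the induction agents also differed between days. All 10 glucocorticoid-induced genes were tested, and at 3 d vs. 0 d 8 rose and 1 fell (ERRFI1, log2 fold change -1.01). At 6 d vs. 3 d 1 rose and 5 fell, and at 6 d vs. 0 d 7 rose and 0 fell. At 9 d 4 rose and 2 fell vs. 0 d, and 0 rose and 5 fell vs. 6 d. ZBTB16 had means ± SD (n = 3) of 0.343 ± 0.162, 282 ± 105, 80.2 ± 15.3 and 12.3 ± 2.92 on the 4 days, and FKBP5 of 0.423 ± 0.116, 83.2 ± 52.4, 19.6 ± 17.5 and 5.13 ± 3.16. Without 6 d replicate 3, the mean of FKBP5 at 6 d was 9.515. PER1 rose at 3 d vs. 0 d (log2 fold change 2.94), and ERRFI1 rose at 6 d vs. 3 d (3.34). Of 9 cAMP-induced genes, 2 rose and 0 fell at 3 d vs. 0 d, and 0 rose and 4 fell at 6 d vs. 3 d, among them PDE4D (-2.89), NR4A3 (-2.01) and PPARGC1A (-1.70). At 9 d vs. 6 d 3 rose, among them NR4A3 by 2.19 and NR4A1 by 1.83. The part of either response in the levels of the adipokines was not tested.

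Markers of other cell types also differed between days. Of 12 skeletal muscle genes, 11 were tested, and 0 rose and 6 fell at 3 d vs. 0 d, whereas 0 rose and 8 fell at 6 d vs. 0 d, with the same numbers at 9 d vs. 0 d. Their summed FPKM was 5387, 8148 and 4082 in the 0 d libraries, 4808, 3086 and 3461 in those of 3 d, 2254, 1764 and 1647 in those of 6 d and 1747, 1385 and 1469 in those of 9 d. Most of that sum came from the joint entry TTN;LOC112442545, with a mean of 2791. No muscle gene with an entry was at 0 throughout. CKM had day means of 133, 3.28, 13.4 and 26.7 and MYOD1 of 268, 109, 47.7 and 54.6. ACTA1 fell by a log2 fold change of -2.18 at 6 d vs. 0 d and MYOG by -2.08 at 9 d vs. 0 d.

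The summed level of smooth muscle and pericyte markers was lowest at 3 d. Of 8, 7 were tested, and at 3 d vs. 0 d 1 rose and 5 fell, while at 6 d vs. 3 d 4 rose and 1 fell. The summed FPKM was 2689, 2712 and 2838 in the 0 d libraries, 344, 378 and 351.5 in those of 3 d, 2286, 2426 and 2417 in those of 6 d and 1514, 1401 and 1478 in those of 9 d. The most abundant was ACTA2, with day means of 1697, 26.8, 1583 and 597.5, and CNN1, TAGLN and CSPG4 were also lowest at 3 d (1.03, 21.0 and 8.71). MYH11 and MCAM had their highest day mean at 3 d (57.2 and 17.5), and PDGFRB had its lowest at 6 d (212). RGS5, a pericyte marker, was at 0 in all libraries of 0 d and 3 d. The part of these cells or genes in the levels of LEP and C1QTNF3 was not tested.

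Of 9 fibroblast and progenitor markers, 8 were tested, and 4 rose and 1 fell at 3 d vs. 0 d. PDGFRA had day means of 160, 929.5, 162 and 203, and DCN rose by a log2 fold change of 2.16 at 9 d vs. 0 d and THY1 by 1.85 at 3 d. COL1A1 was the 1 that fell at 3 d vs. 0 d (-1.68), and it rose by 1.71 at 6 d vs. 3 d. Its day means were 3018, 941, 3080 and 3393, so that it was back near its 0 d level at 6 d. The summed level of this list, led by COL3A1, lay between 115692 and 224847. Macrophage and blood markers summed to between 1.14 and 3.77, with PTPRC, ITGAM, TYROBP and HBB at 0 in all libraries. The most abundant of them, CD14, rose at 3 d vs. 0 d (1.71), as did CSF1R (1.23). The low sum depends on the markers listed: CD163, a scavenger receptor of macrophages that glucocorticoids also induce, was not among them. It had a mean FPKM of 40.2 over the 12 libraries and rose by a log2 fold change of 7.40, 4.85 and 2.14 at 3, 6 and 9 d vs. 0 d. Endothelial markers summed to between 2.59 and 3.82, led by VWF with a mean of 2.06, and 6 of the 8 were under 1 in all libraries. In the endothelial list, CLDN5 (-1.58) and TEK (-1.02) fell at 6 d vs. 3 d, and ERG rose at 9 d vs. 0 d (1.21).

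For the members with a mean FPKM of at least 1, the 3 mRNAs with the highest Pearson r on log2(FPKM + 0.1) were sought among 10222 mRNAs over the 12 libraries, which share the same 4 days. LEP was most like GPC1 (r = 0.991), HSD3B7 (0.989) and VSTM4 (0.988). GPC1, a heparan sulfate proteoglycan of the cell surface, had day means of 92.8, 38.6, 126 and 176. C1QTNF3 was most like ANXA5 (0.997), THBS1 (0.995) and ERMP1 (0.993). THBS1, the matrix protein thrombospondin-1, had day means of 3823, 1050, 14200 and 12769, and ANXA5, a phospholipid-binding protein, of 524, 283, 988 and 1017. These r describe a similar course over the 4 days and carry no p-value. The order of days was not always the same: THBS1 was higher at 6 d than at 9 d, and C1QTNF3 was higher at 9 d.

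LEP and C1QTNF3 had an r of 0.954 with each other, which placed C1QTNF3 at 72 among the mRNAs most like LEP and LEP at 70 among those most like C1QTNF3. The joint C1QTNF2 entry ran the other way, with an r of -0.842 with LEP and -0.714 with C1QTNF3, and it was most like AK3 (0.962), ORMDL1 (0.960) and NFU1 (0.958). C1QTNF1 had an r of 0.016 with LEP and 0.236 with C1QTNF3, and its closest were ITGA10 (0.929), NET1 (0.929) and DENND5A (0.927). Among the 5 members compared, NAMPT had the lowest r with its closest mRNAs, SETD9 (0.772), CAMTA2;SPAG7 (0.766) and FBXO42;LOC112443502 (0.735).

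**Figure D4:**
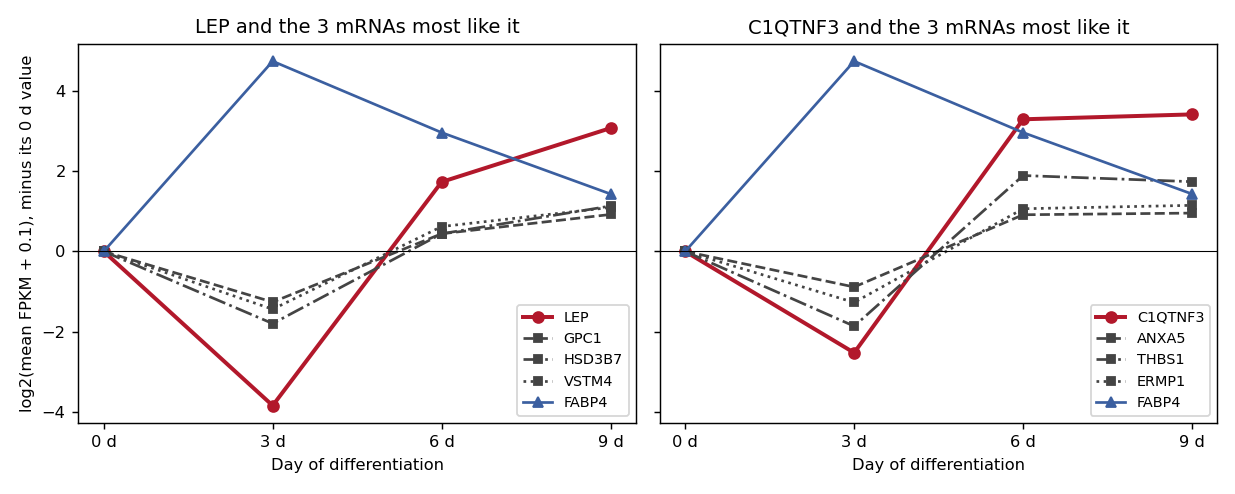
Log2(mean FPKM + 0.1) minus its 0 d value by day for LEP (left) and C1QTNF3 (right), each with the 3 mRNAs of highest Pearson r, and FABP4 for comparison. LEP, C1QTNF3 and their 3 mRNAs lie below their 0 d value at 3 d and above it at 6 d and 9 d, while FABP4 is highest at 3 d, where its mean FPKM was 91.1.

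Circular RNAs were searched as a further readout of the same genes. Of 14070 circular RNAs in the deposited table, 0 were assigned to any of the 9 genes as host.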

How the data were processed

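RNA was measured in 12 libraries, grouped by the day in their labels. The authors trimmed the reads with Trimmomatic and mapped them to the bovine genome ARS-UCD1.2 with Bowtie2 and Hisat2, while the submitters' processing notes list HISAT2 2.0, StringTie 1.3.0 and Bowtie 0.12.2 and name the mouse build mm8. The labels describe poly(A) selection and the study's methods rRNA depletion. The deposited mRNA values are FPKM, computed by the authors. For circular RNAs the authors deposited a count of back-spliced reads and SRPBM, a signal scaled per library that was not used further. The lncRNA and miRNA tables were not used here, and 0 columns of values per sample were unmapped. No sequences or coordinates are given.

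Because FPKM are not counts, they were tested with limma 3.58.1 in R 4.3.3 (eBayes with a trend, all 12 libraries, 1 mean per day) on log2(FPKM + 0.1) for mRNAs with a mean FPKM of at least 0.1, although the study's own test was edgeR. The fit was tested on simulated data. Tables and figures were made with Python 3.11.15, pandas 2.3.3, NumPy 2.4.6 and Matplotlib 3.10.9. Alternatives were other pseudocounts, other minimum levels, rescaling by median ratios, a fit of the 6 libraries compared, a replicate block and leaving out each library.

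The members and gene lists were chosen with earlier results of these data known. Named genes are the 9 members, their receptors, all other C1QTNF genes, up to 4 called genes of each list with the largest absolute log2 fold change, and the 3 mRNAs most like each member with a mean FPKM of at least 1. LGALS12, ADRB3, CEBPA, CIDEA, MYH11, MCAM, PDGFRB, EMILIN3, CD163, LEPROT, RETN, SERPINA12, C1QA, C1QC, RGS5, SIK1, CEBPD and the most abundant or absent markers of the cell type lists were named after their values were seen.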

Additional observations from a re-analysis of the deposited data

How the results depend on the processing

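With a pseudocount of 1, 3 of the adipokine and C1QTNF mRNAs were called at 3 d vs. 0 d in place of 5, and the calls among all mRNAs numbered 2184 in place of 3585 at 3 d, 967 in place of 1749 at 6 d and 888 in place of 1675 at 9 d vs. 0 d, 1688 in place of 2939 at 6 d vs. 3 d and 368 in place of 683 at 9 d vs. 6 d. A larger pseudocount shrinks differences between low values. With a mean FPKM of at least 1, ADIPOQ and RARRES2 were not tested, so that 3 were called at 3 d vs. 0 d, and 1114 mRNAs in all at 9 d vs. 0 d. Without a minimum level, which adds C1QTNF6 and C1QTNF7 to the test, 6 in place of 5 were called at 3 d vs. 0 d and 5 in place of 4 at 6 d vs. 0 d. At 9 d vs. 6 d, LEP was not called and the count was 0 in place of 1 with a pseudocount of 0.01 and without a minimum level. The log2 fold change of LEP hardly moved: it was 1.37 and 1.36 in these 2 fits, beside 1.36 in the main fit. Its standard error was 0.978 with a pseudocount of 0.01 and 0.408 without a minimum level, beside 0.407 in the main fit. Leaving out 1 library at a time gave 5 called in each fit of 3 d vs. 0 d, 3 to 4 for 6 d vs. 0 d, 2 to 4 for 9 d vs. 0 d, 2 to 3 for 6 d vs. 3 d and 0 to 1 for 9 d vs. 6 d. The 1 called there without 6 d replicate 3 or without 9 d replicate 2 was C1QTNF1, which was lower, and not LEP. Among log2 fold changes of single members under other settings, 225 kept their side of the thresholds, 9 lost a call and 1 gained one, and with a library left out these numbers were 190, 16 and 4. No called value changed sign. The depth behind FPKM near 0 is unknown, which limits ADIPOQ, C1QTNF6, C1QTNF7 and LEP at 3 d.

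With the replicate block, 0 adipokine and C1QTNF mRNAs were called at 9 d vs. 6 d in place of 1, since the adjusted p of LEP in limma was 0.0545, and no other call of a member changed. The correlation of deviations from the day means lay between -0.098 and 0.112 (mean 0.027) over 18 pairs with the same number. Over 36 pairs with other numbers it lay between -0.19 and 0.183 (mean -0.014). Of the 12 libraries, 6 correlated best with their own number. These ranges overlap, so no strong pairing by number was seen, but they cannot exclude a weak one.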

Other observations

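ADIPOQ and C1QTNF1, which had the largest residual SD on the log2 scale of the 7 tested mRNAs (0.890 and 0.618), shared several of their extreme libraries on the induced days, although their lowest libraries at 6 d differed (replicate 2 for ADIPOQ and replicate 3 for C1QTNF1). At 0 d, by contrast, replicate 1 was the lowest in ADIPOQ (FPKM 0.01) and the highest in C1QTNF1 (274.94). At 3 d, replicate 1 was the lowest in both (FPKM 0.40 and 669.69). At 6 d, replicate 1 was the highest in both (1.64 and 2690.16). At 9 d, replicate 2 was the highest (0.82 and 1193.59) and replicate 3 the lowest (0.19 and 374.27) in both. Other tested members shared some of these extremes. RARRES2, NAMPT and C1QTNF3 were also lowest in 3 d replicate 1, and RARRES2 and NAMPT in 9 d replicate 3. LEP and the joint C1QTNF2 entry were also highest in 6 d replicate 1. By contrast, RARRES2 and NAMPT were highest in 6 d replicate 3, and the joint C1QTNF2 entry was highest in 9 d replicate 3. The adipocyte markers summed to 245, 249 and 253 in the 3 libraries of 3 d, to 138, 149 and 161 in those of 6 d and to 144.5, 129 and 152 in those of 9 d. Replicate 1 was thus the lowest in that sum at 3 d, as in both genes, but 6 d replicate 1 and 9 d replicate 2 were also the lowest of their days. The cAMP-induced genes summed to 347.5, 991 and 975 at 3 d, to 249, 178 and 169 at 6 d and to 497, 515 and 565 at 9 d. In that sum replicate 1 was the lowest at 3 d and the highest at 6 d, as in both genes, while 9 d replicate 3 was the highest. PDE4D, the most abundant of these genes, spanned 119.4 to 725.2 at 3 d, whereas SIK1 spanned 129.6 to 142.9. The glucocorticoid-induced genes summed to 4287, 4238 and 4172 at 3 d and to 3475, 3717 and 3713 at 6 d. At 9 d they summed to 2404, 2612 and 2690. There replicate 1 was the highest at 3 d and the lowest at 6 d, unlike in both genes, and 9 d replicate 3 was the highest. A sum follows its most abundant genes, and the order of libraries in it need not hold for single genes. CEBPD led the glucocorticoid-induced genes (mean FPKM 1833) and ACSL1 the adipocyte markers (41.2). At 3 d CEBPD lay between 2435 and 2447, whereas FKBP5 was 113.9, 22.73 and 112.9 in the 3 libraries. The residual SD of ADIPOQ was above that of 91.7% of the 2404 mRNAs with a mean FPKM within 2 fold of its own. This pattern was noticed in the values and was not tested.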
